A study of Mus musculus with 8 samples.

Results

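Surfactant and alveolar type 2 genes were followed through 8 single-cell libraries of mouse lung tumors as 10 genes chosen by symbol, all 10 of which were found among the 27923 genes of the count tables. They are the surfactant protein genes Sftpc, Sftpa1, Sftpb and Sftpd, the lamellar body genes Lamp3 and Abca3, the phosphate transporter gene Slc34a2, the protease gene Napsa, the transcription factor gene Nkx2-1 and Ager, a gene best known from alveolar type 1 cells. The tumors came from an autochthonous lung tumor model, in high-degree chimeric mice on a C57BL/6 background whose p53 alleles (p53 fl/fl) are removed by Cre recombinase. Adenovirus that carries Cre behind the surfactant protein C promoter was given by the trachea at 12 weeks of age, so that recombination starts in cells that use this promoter, and tumors were dissected 16 weeks later. All groups share this genotype and this virus, and no normal lung or other Cre driver was analysed here. Each of the 2 mice, 1 male and 1 female, gave 1 tumor, which stands for its mouse, its sex and its dissection at once.

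Slices of each tumor were loaded with a caged calcein dye, and light was directed at the edge between healthy tissue and tumor, which released the dye there. Live cells with released calcein were sorted as the Healthy/Tumor Border (1 library per tumor), and cells of tissue without photoactivation made up the Whole Tumor (3 technical Seq-Well arrays per tumor), so the spread between arrays is technical and says nothing about other mice. Seq-Well captures messenger RNA of single cells in microwells on barcoded beads and counts each molecule once by its unique molecular identifier (UMI). The tables held 4343 barcodes, of which the 3894 with at least 200 genes were kept, and their UMIs summed to between 374369 and 2019162 per library. In all 8 tables the tumor number inside the cell names is swapped against GEO's labels, which were followed here. Among them, 10 barcode sequences occurred in more than 1 library and belonged to 56 kept barcodes, 1 of them surfactant-positive by the rule given next.

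Alveolar type 2 cells make surfactant, a film of lipid and protein that keeps the air sacs open. They pack surfactant lipid into lamellar bodies, into which ABCA3 pumps phospholipid and whose membrane carries LAMP3, and there the small hydrophobic proteins SP-B and SP-C join the lipid. SP-A and SP-D, the products of Sftpa1 and Sftpd, are secreted collectins that bind microbes. Napsin A, encoded by Napsa, helps to trim the SP-B precursor, NKX2-1 is the lung lineage factor that drives surfactant genes, and SLC34A2 takes phosphate back up from the alveolar space. Ager encodes a membrane receptor that is abundant in the flat alveolar type 1 cells, which arise from type 2 cells. Lung tumors of this kind are known to begin with alveolar features and to lose them as they progress.

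In GRCm38 (mm10, GENCODE M21) Sftpc lies at chr14:70520949-70524081 on the minus strand, Sftpa1 at chr14:41131782-41136452 on the plus strand and Sftpd at chr14:41172214-41185149 on the minus strand, so the collectin genes are neighbours. Sftpb lies at chr6:72304610-72314371 (plus), Lamp3 at chr16:19653378-19706375 (minus), Slc34a2 at chr5:53038081-53071664 (plus), Abca3 at chr17:24351950-24410201 (plus), Napsa at chr7:44572380-44586862 (plus), Nkx2-1 at chr12:56531958-56536908 (minus) and Ager at chr17:34597862-34600936 (plus). Slc34a2, Napsa and Nkx2-1 each overlap 1 annotated gene and Abca3 overlaps 2, all on the opposite strand, and whether reads were counted by strand is not given in the sources used here. The 250 bases before the RefSeq start of Sftpb and of Sftpa1 are shown because their counts differ in the keratin-positive barcodes described later. Capitals mark CTCAAG, read on both strands (CTTGAG on the other), which are core letters of sites that NKX2-1 is known to bind. The windows are chr6:72304360-72304609 (plus strand) for Sftpb and chr14:41131538-41131787 (plus strand) for Sftpa1, from the RefSeq promoter table of build GRCm38.p6.
Sftpb: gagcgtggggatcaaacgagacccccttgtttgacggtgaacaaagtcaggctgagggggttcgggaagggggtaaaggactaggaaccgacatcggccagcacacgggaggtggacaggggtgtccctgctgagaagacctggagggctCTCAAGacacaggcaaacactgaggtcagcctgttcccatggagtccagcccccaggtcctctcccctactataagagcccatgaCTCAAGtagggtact
Sftpa1: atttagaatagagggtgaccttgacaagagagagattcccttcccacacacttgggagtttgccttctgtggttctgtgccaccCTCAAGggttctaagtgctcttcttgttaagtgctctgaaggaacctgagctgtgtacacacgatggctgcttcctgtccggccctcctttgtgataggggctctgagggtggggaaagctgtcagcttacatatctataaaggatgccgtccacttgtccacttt
The letters occurred 2 times before Sftpb and 1 time before Sftpa1. Of all 32851 promoters of this length in the table, 13.3% held them at least once and 0.998% at least 2 times. Promoters of 7 of the 10 genes matched the table, and the other five of those (Lamp3, Slc34a2, Abca3, Nkx2-1 and Ager) did not hold these letters in this window. A match is a description of letters and was not tested as a site. Sftpc, Sftpd and Napsa had no entry.

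Barcodes were split into epithelial classes by the counts themselves. A barcode was surfactant-positive with at least 3 UMIs from at least 2 of Sftpc, Sftpa1, Sftpb and Sftpd, and keratin-positive with at least 3 UMIs from at least 2 of Krt7, Krt8, Krt18 and Krt19. This gave 78 surfactant-positive barcodes, of which 52 were also keratin-positive and 26 were not, 143 keratin-positive barcodes that were not surfactant-positive (called keratin-positive from here on) and 3673 non-epithelial barcodes. Non-epithelial means only that neither rule was met. Of these 3673, 1684 were also given no leukocyte or stroma class by marker genes, so epithelial cells with few such UMIs can be among them. The levels of the 4 surfactant genes in these classes follow from the rule and are descriptions, while the other 6 genes took no part in it. The epithelial markers Epcam and Cdh1 stood at 10.6 UMIs per 10000 in surfactant-positive and 9.15 in keratin-positive barcodes, against 0.258 in lymphoid barcodes. Neutrophil, macrophage, dendritic, lymphoid and stroma lists stood at 1.05, 0.781, 0.204, 0.305 and 0.441 UMIs per 10000 in surfactant-positive barcodes. The alveolar macrophage list stood at 0.814 there, against 0.175 in keratin-positive and 0 in lymphoid barcodes. Of its 24 UMIs, arrays 2 and 3 of Whole Tumor 1 held 11 and 10. The part of all these lists in the results was not tested. Array 1 of Whole Tumor 1 held 18 of the 23 macrophage and 15 of the 31 neutrophil UMIs, and without it these lists stood, in that order, at 0.197 and 0.629. No surfactant-positive barcode was among the 57 doublets called, though 4 of the 78 also met the marker rule of the neutrophil class and 1 that of the macrophage class.

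Pooled over libraries, all 10 genes stood highest in surfactant-positive barcodes (levels are UMIs per 1000000, CPM, over the summed barcodes of a class, with 95% Poisson intervals that cover counting error only, not the spread between mice). Sftpc, the classic type 2 marker, stood at 15302 CPM (14859 to 15756) in surfactant-positive, 3.50 (0.424 to 12.6) in keratin-positive, 10.9 (8.84 to 13.3) in non-epithelial and 5.73 (0.694 to 20.7) in lymphoid barcodes. The lymphoid class, 115 barcodes with a median of 2731 UMIs against 2666.5 in surfactant-positive barcodes, serves as the level of free RNA for the genes other than Abca3 and Napsa, which are described later. It held 0 UMIs of Sftpa1, Sftpd, Slc34a2 and Nkx2-1, for which 3 counts set a limit of 8.60 CPM, and 1 UMI each of Sftpb, Lamp3 and Ager.

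**Figure D1:**
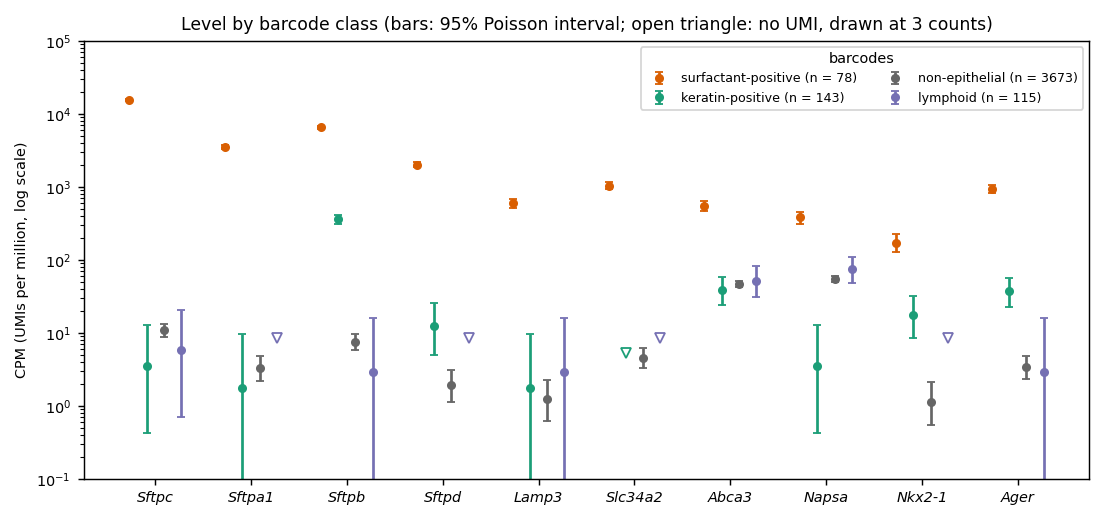
Level of each gene (CPM, log scale) in surfactant-positive, keratin-positive, non-epithelial and lymphoid barcodes summed over 8 libraries, with 95% Poisson intervals and open triangles at the limit of 3 counts where no UMI was found. Surfactant-positive points stand highest for every gene, keratin-positive Sftpb stands apart from keratin-positive Sftpc, and lymphoid barcodes keep 51.6 CPM of Abca3 and 74.5 CPM of Napsa.

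The 6 genes outside the rule are taken in turn, with Napsa given later among the leukocytes. Lamp3 stood at 591 CPM (506 to 685) in surfactant-positive against 1.75 in keratin-positive barcodes (1 UMI), a ratio of 337 with a counting interval from 59.8 to 13401. Slc34a2 stood at 1035 CPM (922 to 1158) with no UMI in keratin-positive barcodes, which makes it at least 159-fold higher by the counting interval. Abca3 stood at 546 CPM (465 to 638) against 38.5 (24.1 to 58.3) in keratin-positive barcodes, and Nkx2-1 at 169.7 (126 to 224) against 17.5 (8.39 to 32.2). Ager, the type 1 gene, stood at 933 CPM (826 to 1050.4) against 36.8 (22.8 to 56.2), where 9 of the 21 keratin-positive UMIs came from array 3 of Whole Tumor 2, and 29 of the 42 surfactant-positive barcodes with Ager also held Sftpc. Together these 6 genes made up 3655 CPM (3440.0 to 3880.0) of the surfactant-positive barcodes. The 26 surfactant-positive barcodes without the keratin rule, whose median was 1321 UMIs, were compared with the 52 that also met it within each tumor. Sftpc stood at 8999 CPM against 5790 in Tumor 1 and at 25805 against 39494 in Tumor 2, but single barcodes set these values: 1 barcode of array 1 of Whole Tumor 1 held 148 of the 240 Sftpc UMIs of the 15 in that tumor. Without the barcode with the most surfactant UMIs in each library Sftpc stood at 3978 against 5264 CPM in Tumor 1 and at 21271 against 23031 in Tumor 2, and without array 1 of Whole Tumor 1 at 4195 against 6409 in Tumor 1, so no direction is read for it. Sftpb was lower in the 26 in both tumors (3000 against 6488 CPM in Tumor 1 and 2740 against 8569 in Tumor 2), and so were Sftpd (599.9 against 1522 and 685 against 3955) and Lamp3 (149.98 against 505 and 304 against 1016), Lamp3 from 4 UMIs in the 26 in each tumor. Without those highest barcodes each of these 3 genes stayed lower in the 26 in both tumors (Sftpb at 2162 against 5032 CPM and 2069 against 7307), but the sizes rest on single arrays. Without array 1 of Whole Tumor 1, Sftpb stood at 5085 against 6945 CPM and Lamp3 at 381 (3 UMIs) against 480.03 in Tumor 1, and without array 2 of that tumor Lamp3 stood at 51.5 (1 UMI) against 485. Without array 2 of Whole Tumor 2, which held all 4 Lamp3 UMIs of the 26 in Tumor 2, Lamp3 stood at 0 against 994 CPM, Sftpd at 396 against 3792 and Sftpb at 1715 against 8214. Epcam and Cdh1 stood at 5.62 UMIs per 10000 in the 26 against 12.0 in the 52 in Tumor 1, and at 4.57 against 9.89 in Tumor 2. Macrophage markers stood at 4.52 per 10000 in the 26 against 0.196 in the 52 and neutrophil markers at 3.77 against 0.628, but array 1 of Whole Tumor 1 carried most of these, and without it the values were 0.476 (1 UMI) against 0.172 and 1.43 (3 UMIs) against 0.557. The part of these markers in the difference was not tested.

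In Whole Tumor 1, where the keratin-positive barcodes were numerous, the 2 classes were compared as sums of each array with the array as a block (edgeR quasi-likelihood test, Benjamini-Hochberg adjustment over all genes tested). Of the 6 genes outside the rule, 5 passed the filter on low counts. At the filter's cutoff of 90.1 CPM all 5 passed only through the surfactant-positive sums, since each lay below it in the keratin-positive sums of all 3 arrays, so they had to differ, and their values are given with no test. Of the 1788 genes tested, edgeR called 3.75% higher, 0.951% lower and 4.7% in either direction, and nothing is read from how many of the 5 were among them. Slc34a2 held 27, 153 and 5 UMIs in the surfactant-positive barcodes of arrays 1, 2 and 3 and 0 in each keratin-positive sum, so it was at least 132-fold higher by the counting interval. Lamp3 held 16, 59 and 21 UMIs against 0, 0 and 1, a ratio of 256 with a counting interval from 44.9 to 10216. Napsa held 4, 45 and 14 UMIs against 1, 0 and 1, a ratio of 84.0 (22.3 to 709). The counts of each of these 3 genes were higher in surfactant-positive than in keratin-positive barcodes in all 3 arrays.

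Ager held 8, 87 and 45 UMIs in surfactant-positive against 8, 1 and 1 in keratin-positive barcodes of Whole Tumor 1, a count ratio of 37.3 (19.7 to 79.6). Its counts were equal in array 1, though in CPM it stood higher there too, at 198 against 41.1 CPM. Abca3 held 8, 63 and 13 UMIs against 11, 5 and 0, a count ratio of 14.0 (8.14 to 25.6). Nkx2-1, the lineage factor, did not pass the filter and held 3, 19 and 10 UMIs against 2, 5 and 0, a count ratio of 12.2 (5.29 to 32.7).

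Of 24 other alveolar type 2 genes that are not among the 10, 13 passed the filter. Of these 13, 8 were above its cutoff in all 3 surfactant-positive sums but not in all keratin-positive ones, so they passed through the class where they were high, and no count of calls or median over the 13 is given. The 6 of the list with the smallest adjusted p are among these 8 and are given by their counts alone. Cxcl15, a lung chemokine gene, held 137 UMIs in surfactant-positive against 1 in keratin-positive barcodes, a count ratio of 365 (64.5 to 14534). Lyz2, a lysozyme gene shared with macrophages, held 198 against 26, the lipid enzyme gene Scd1 746 against 53 and Chi3l1 808 against 51. Cd74, the invariant chain of MHC class II, held 258 against 43, and Lpcat1, which remodels surfactant phospholipid, 52 against 6. Of the genes above the cutoff in every sum of both classes, Npc2 (log2 fold change 2.02, adjusted p = 0.0183 by edgeR) and Muc1 (2.01, 0.0302) were called higher, and Cldn18 (1.18, 0.109) and Ctsh (1.40, 0.124) were not called, where 3.75% of all genes tested were called higher. Il33, above it in only some sums of each class, was not called (0.89, 0.450). Of 13 alveolar type 1 genes, 4 were tested and 0 were called by edgeR (log2 fold changes of Cldn18, Vegfa, Emp2 and Gprc5a were 1.18, 1.24, 0.53 and 0.87). Of 15 genes tied to lung tumor progression, 6 were tested. Hmga2, a chromatin gene of embryonic cells, was the one called, lower in surfactant-positive barcodes, but it passed the filter only through the keratin-positive sums and so had to be lower. It held 5 UMIs in surfactant-positive and 228 in keratin-positive barcodes, a count ratio of 0.0585 (0.0188 to 0.138). Vim, Ankrd1 and Plaur likewise passed through the keratin-positive sums and are given as counts, at 34 against 690, 21 against 208 and 18 against 84 UMIs in surfactant-positive and keratin-positive barcodes. Itga2 and Cldn4 had log2 fold changes of 0.58 and 0.45 and were not called by edgeR. None of the 6 airway genes passed the filter, and these list counts were not recomputed without single arrays.

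Among keratin-positive barcodes, Sftpb was the surfactant gene found most often. Keratin-positive barcodes held 206 Sftpb UMIs (361 CPM, 313 to 413) against 2 of Sftpc, 1 of Sftpa1 and 7 of Sftpd, and 34 of 143 had at least 1 Sftpb UMI, of which 32 had no UMI of the other 3 surfactant genes. The rule shapes that last count, since a barcode with at least 2 Sftpb UMIs and any other surfactant UMI becomes surfactant-positive. The absence of the other 3 genes is therefore a description. Thinned to 500 UMIs per barcode, 9.22% of 141 keratin-positive barcodes kept an Sftpb UMI against 0.870% of the 115 lymphoid barcodes, which stood at 23.8% and 0.870% before thinning with median depths of 2855 and 2731 UMIs. Most lymphoid barcodes were of Tumor 2 (96 against 19), whereas the keratin-positive ones were of Tumor 1. Within Tumor 1 the thinned shares were 9.49% of 137 keratin-positive barcodes, 0.727% of 1513 non-epithelial ones and 5.26% of the 19 lymphoid ones, the last from 1 barcode. Barcodes that held Sftpb had between 1 and 45 Sftpb UMIs, with a median of 3. The rule leaves out any barcode whose surfactant UMIs come from 1 gene. With at least 3 UMIs from a single surfactant gene there were 19 keratin-positive barcodes for Sftpb, all of Tumor 1, and 0 for Sftpc, Sftpa1 and Sftpd. Among barcodes without the keratin rule there were 3 for Sftpb, 3 for Sftpc and 0 for Sftpa1 and Sftpd. Barcodes with a second surfactant gene have already moved to the surfactant-positive class, so these counts are descriptions too. Within Whole Tumor 1, surfactant-positive barcodes held Sftpb at 16.9-fold the level of keratin-positive ones (14.4 to 19.8), and Sftpc at 1489-fold (411 to 12314). Both genes are part of the rule that splits these classes, so both ratios follow from it and are descriptions.

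Keratin-positive barcodes were nearly all of Tumor 1, 139 against 4 in Tumor 2. Sftpb was found in 2 of 7 at the border of Tumor 1 and in 13 of 56, 14 of 53 and 4 of 23 in its Whole Tumor arrays, with 20, 96, 53 and 36 UMIs. In Tumor 2, 1 of 4 held 1 Sftpb UMI. Every Tumor 1 library thus held keratin-positive barcodes with Sftpb, and Tumor 2 had too few to compare. Nkx2-1 was found in 3 of the 34 keratin-positive barcodes with Sftpb and in 4 of the 109 without, against 24 of 78 surfactant-positive barcodes. Napsa was found in 2 and Ager in 9 of the 143, against 25 and 42 of the 78.

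**Figure D2:**
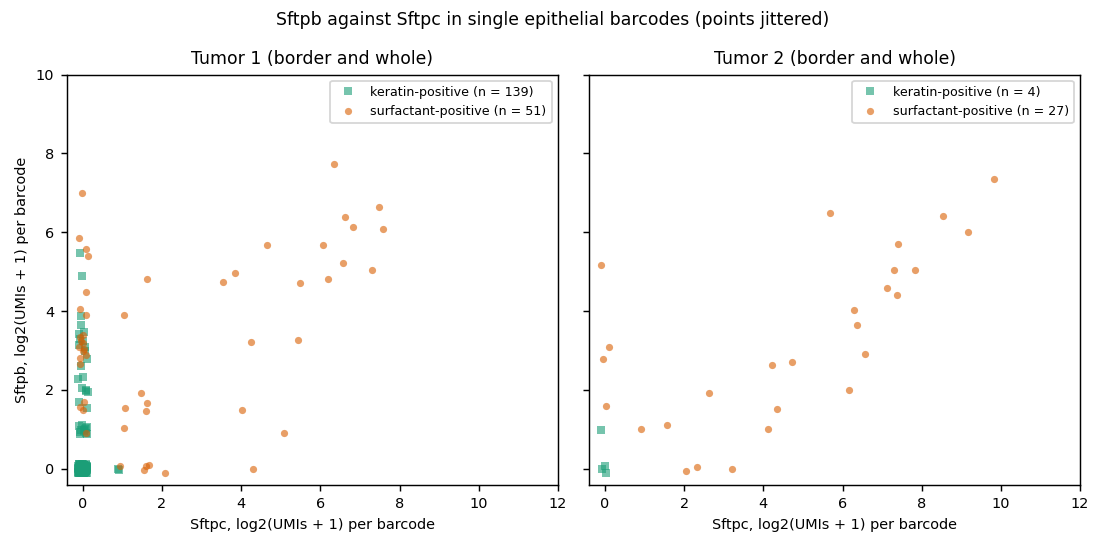
UMIs of Sftpb against Sftpc in each epithelial barcode (log2(UMIs + 1), jittered), surfactant-positive as circles and keratin-positive as squares, by tumor. Of the keratin-positive barcodes 34 rise along the Sftpb axis at or near 0 Sftpc, and 25 surfactant-positive barcodes, 21 of them in Tumor 1, also hold Sftpb without Sftpc. The rule of at least 3 UMIs from at least 2 surfactant genes keeps most barcodes with both genes out of the keratin-positive class.

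Surfactant-positive barcodes varied widely among themselves. Their surfactant UMIs ran from 3 to 1460 with a median of 24, and the 5 highest barcodes held 45.0% of them (44.5% of those of Tumor 1 and 71.1% of those of Tumor 2). The levels of summed barcodes given below therefore rest on few barcodes, and they are also given without the barcode that held the most surfactant UMIs in each library, a setting chosen after the data were seen. All 4 surfactant genes were found in 27 barcodes, 3 of them in 18 and 2 in 33. Just inside the rule lay 9 barcodes with 3 UMIs, and just outside lay 16 with 2 UMIs from 2 genes and 25 with at least 3 from 1 gene. Of the 10 genes, a surfactant-positive barcode held between 2 and 10, with a median of 5.

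To look at each surfactant gene without its own part in the rule, barcodes were chosen by the other 3. Sftpb was found in 43 of 52 such barcodes, Sftpd in 40 of 61, Sftpc in 34 of 59 and Sftpa1 in 38 of 67. By tumor, Sftpc was found in 18 of 39 barcodes of Tumor 1 and 16 of 20 of Tumor 2, and Sftpa1 in 19 of 43 and 19 of 24. Sftpb, by contrast, was found in 24 of 30 and 19 of 22, and Sftpd in 22 of 36 and 18 of 25. By library these shares overlapped between the tumors: Sftpc was found in 13 of 22 in array 2 of Whole Tumor 1 and in 2 of 4 in array 3 of Whole Tumor 2, and Sftpa1 in 13 of 22 and 3 of 6. Sftpc in these barcodes stood at 6724 CPM in Tumor 1 and 41364 in Tumor 2, whereas Sftpb stood at 7095 and 8277, sums in which single barcodes weigh as just described.

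The share of surfactant-positive barcodes was 3.79%, 4.01% and 2.31% in the arrays of Whole Tumor 1 and 2.13%, 1.63% and 0.974% in those of Whole Tumor 2 (means 3.37% ± 0.92 and 1.58% ± 0.58, SD, n = 3 each). Every Tumor 1 array was above every Tumor 2 array, and the difference of 1.79 percentage points had p = 0.1 by a two-sided exact permutation test, the smallest that 3 against 3 can give. With at least 500 genes per barcode, with all deposited barcodes, or with a rule of 2 or of 5 surfactant UMIs the arrays overlapped (p = 0.4, 0.2, 0.2 and 0.3 by the same exact test), and the difference lay between 1.06 and 1.78 points. At the border, 1 of 620 barcodes was surfactant-positive in Tumor 1 (0.161%, Clopper-Pearson interval 0.00408% to 0.895%) and 8 of 506 in Tumor 2 (1.58%, 0.685% to 3.09%). The Tumor 1 border lay below each of its Whole Tumor arrays, the Tumor 2 border within the range of its arrays.

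**Figure D3:**
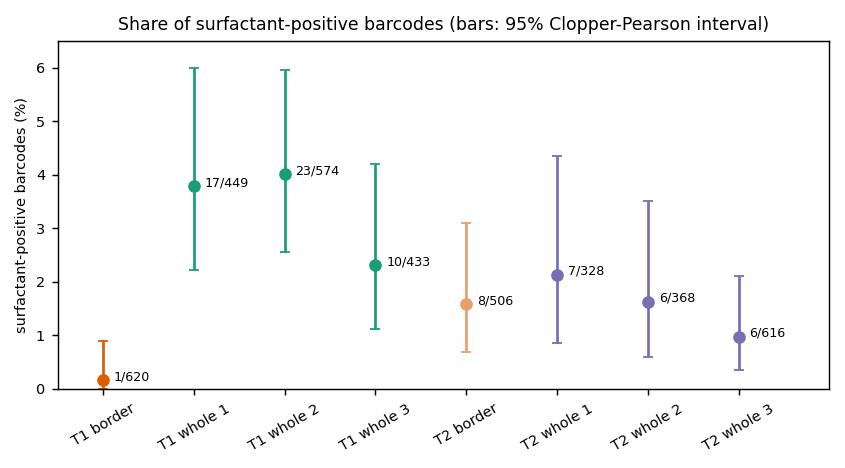
Share of kept barcodes that were surfactant-positive in each library (percent, with 95% Clopper-Pearson intervals and the counts beside each point). The arrays of Whole Tumor 1 lie between 2.31% and 4.01%, those of Whole Tumor 2 between 0.974% and 2.13%, and the border of Tumor 1 at 0.161%.

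Over all kept barcodes of a library, Sftpc stood at 252, 393 and 101 CPM in the arrays of Whole Tumor 1 and at 1480.1, 395 and 639 in those of Whole Tumor 2. Sftpa1 stood at 47.7, 77.3 and 13.4 CPM against 444, 122.9 and 159.9. For both genes every Tumor 2 array was above every Tumor 1 array, though for Sftpc the nearest arrays stood within counting error at 393 and 395. A single barcode held 938 of the 1147 Sftpc and 272 of the 287 Sftpa1 UMIs of array 3 of Whole Tumor 2, and another held 593 of the 1086 Sftpc UMIs of array 1. Without the highest barcode of each library, Sftpc stood at 106, 353 and 102 CPM against 681, 177 and 117, and Sftpa1 at 22.9, 57.2 and 4.82 CPM against 184, 45.5 and 8.42. The arrays of the tumors then overlapped for both genes. Napsa stood at 42.7, 55.5 and 41.1 CPM against 109, 96.2 and 85.8, without overlap, with or without these barcodes. Such sums mix the share of surfactant-positive barcodes with the level inside them, which are given separately.

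Of the 10 genes, all of which passed the filter, 3 were called between Whole Tumor 1 and Whole Tumor 2 and all 3 were lower in Tumor 1, where 14.3% of the 11232 genes tested were called lower, 11% higher and 25.2% in either direction. The log2 fold changes (Tumor 1 over Tumor 2, ± SE) were -2.01 ± 0.40 for Sftpc (adjusted p = 0.00110), -2.59 ± 0.43 for Sftpa1 (adjusted p = 0.000191) and -1.32 ± 0.20 for Napsa (adjusted p = 8.61e-05), by edgeR with TMM normalization. Without the highest barcode of each library Sftpc (-1.01, adjusted p = 0.152) and Sftpa1 (-1.52, 0.135) were not called by edgeR. That barcode is chosen by surfactant UMIs, the values compared, so what is called without it is not read as a result. Of all Napsa UMIs, 80.9% lay in non-epithelial barcodes, where Napsa stood at 36.2 CPM (30.8 to 42.1) in Tumor 1 and 74.8 (66.8 to 83.4) in Tumor 2, borders included. Dendritic barcodes, the leukocyte class with the highest Napsa level in CPM, numbered 5, 5 and 5 in the arrays of Whole Tumor 1 and 12, 6 and 20 in those of Whole Tumor 2, alveolar macrophage barcodes, the next class in pooled level, numbered 0, 0 and 1 against 13, 10 and 24, and the part of this mix in the call was not tested. Sftpb went the other way in its level, at 214, 422 and 314 CPM against 221, 160.3 and 130.4, with overlap of 1 array and a log2 fold change of 0.62 ± 0.23 (adjusted p = 0.0588 by edgeR). Nkx2-1 stood at 8.95, 12.4 and 10.5 CPM against 1.36, 0 and 3.90, without overlap but from 45 and 8 UMIs in all (log2 fold change 1.74 ± 0.69, adjusted p = 0.0738 by edgeR). Scaled by library totals alone, Sftpb and Nkx2-1 were called higher in Tumor 1 as well (adjusted p = 0.00645 and 0.0317 by edgeR). TMM lowered these fold changes by 0.30 on the log2 scale over library totals, and its part in these calls was not tested.

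The remaining genes were not called between the Whole Tumors. Sftpd stood at 27.8, 96.1 and 82.2 CPM in Tumor 1 and 92.7, 61.4 and 86.4 in Tumor 2, and Lamp3 at 15.9, 29.7 and 23.9 against 43.6, 18.7 and 17.3. Slc34a2 ranged from 14.3 to 77.3 CPM against 5.34 to 45.0, and Ager from 18.9 to 48.7 against 16.03 to 59.97. Abca3 was nearly level, at 65.4 ± 2.16 CPM against 56.9 ± 8.11 (SD, n = 3 each). The arrays overlapped for all 5 genes, and edgeR gave adjusted p from 0.228 to 0.658.

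Within surfactant-positive barcodes alone, the levels of the rule's own genes are descriptions. Sftpc stood at 5763, 6808 and 2503 CPM in the arrays of Whole Tumor 1 and at 42562, 21255 and 44349 in those of Whole Tumor 2, and Sftpa1 at 1088, 1322 and 347 against 12880.5, 6507 and 10919.7. Sftpb overlapped, at 2646, 6860.3 and 6767 CPM against 6240.3, 8676 and 9027. These sums rest on 17, 23 and 10 barcodes against 7, 6 and 6. The keratin genes of the other class rule differed as well, at 62.1, 63.0 and 68.9 UMIs per 10000 in the same barcodes of Whole Tumor 1 against 20.0, 20.2 and 25.6 in Whole Tumor 2, without overlap, and their part in these levels was not tested. With that barcode left out of each library, Sftpc stood at 2304, 6555 and 3340 CPM against 30968, 11090 and 14655, still without overlap, while Sftpa1 overlapped, at 515, 1041 and 165.3 against 8482, 2730 and 392. Among the 317 genes that could be tested, edgeR called 1.26% (0.631% higher and 0.631% lower). None of the 5 tested genes outside the rule was called by edgeR or by DESeq2: Lamp3, Abca3, Ager, Napsa and Slc34a2 had log2 fold changes of -1.26, -1.41, -1.41, -0.84 and 0.12, of which the first 3 had an unadjusted p under 0.05. No share of all genes at that unadjusted threshold is given, so nothing is read from this number of genes.

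The ratio of Sftpb to Sftpc UMIs does not depend on library scaling. It was 0.846, 1.07 and 3.10 in the arrays of Whole Tumor 1 and 0.149, 0.405 and 0.204 in those of Whole Tumor 2, and 0.654 and 0.251 at the borders of Tumor 1 and Tumor 2. Every Tumor 1 library, the border included, was above every Tumor 2 library. At the border of Tumor 1 a single barcode held 92 of the 117 Sftpb and 177 of the 179 Sftpc UMIs. These sums also include Sftpb of keratin-positive barcodes, as many as 96 of 215 UMIs in array 1 of Whole Tumor 1. In Tumor 2 such barcodes held at most 1 of 234, in array 3 of Whole Tumor 2. In surfactant-positive barcodes alone the ratio was 0.459, 1.01 and 2.70 against 0.147, 0.408 and 0.204, again without overlap but with neighbouring arrays at 0.459 (0.362 to 0.580) and 0.408 (0.297 to 0.555). More Sftpb than Sftpc UMIs were found in 29 of 51 surfactant-positive barcodes of Tumor 1 and in 5 of 27 of Tumor 2. With the highest barcode of each library left out, the ratio over all barcodes was 1.75, 0.927 and 1.81 in Whole Tumor 1 and 0.195, 0.742 and 0.335 in Whole Tumor 2, without overlap. This ratio was chosen after the values were seen and carries no test.

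**Figure D4:**
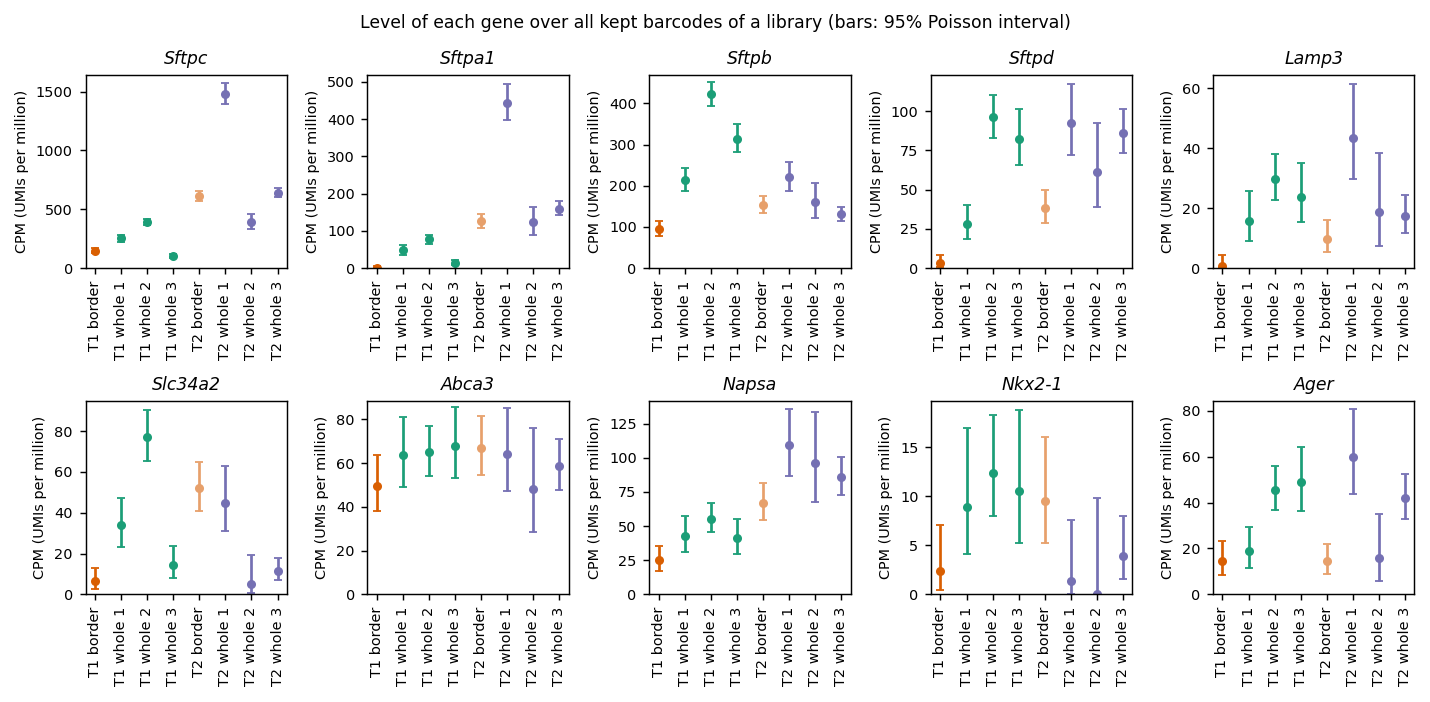
Level of each gene over all kept barcodes (CPM, axes from 0) in the border and the 3 Whole Tumor arrays of each tumor, with 95% Poisson intervals. Sftpc, Sftpa1 and Napsa stand higher in the Whole Tumor 2 arrays, Sftpb and Nkx2-1 tend the other way, and Abca3 lies between 48.1 and 67.8 CPM in all 8 libraries.

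At the Healthy/Tumor Border of Tumor 1, 4 of the 10 genes were called lower than in Whole Tumor 1 and none higher, where 8.37% of genes were called lower, 9.96% higher and 18.3% in either direction (edgeR). Sftpa1 held 2 UMIs at the border (1.63 CPM) and 48, 156 and 14 in the arrays, a count ratio of 0.0304 (0.00365 to 0.111; adjusted p = 0.0327). Sftpd held 4 UMIs (3.25 CPM) against 28, 194 and 86, with a log2 fold change of -3.88 ± 0.77 (adjusted p = 0.00147). Lamp3 held 1 UMI (0.813 CPM) against 16, 60 and 25, a count ratio of 0.0328 (0.000822 to 0.187; adjusted p = 0.00506). Sftpb stood at 95.1 CPM against 214, 422 and 314, with a log2 fold change of -1.21 ± 0.35 (adjusted p = 0.0215). The border lay below every array for all 4 genes.

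Sftpc did not follow them, at 146 CPM at the border of Tumor 1 against 252, 393 and 101 in the arrays (log2 fold change -0.27 ± 0.58, adjusted p = 0.811 by edgeR). Nearly all of it came from 1 barcode: the single surfactant-positive barcode of that library, with 12918 UMIs in all, held 177 of its 179 Sftpc UMIs, 92 of 117 Sftpb UMIs, 12 of 18 Ager UMIs and 0 of Sftpa1, Lamp3 and Napsa. Slc34a2 and Nkx2-1 stood at 6.5 and 2.44 CPM at the border, below every array but not called (adjusted p = 0.115 and 0.318 by edgeR). Ager, at 14.6 CPM against 18.9, 45.6 and 48.7, Napsa, at 25.2 against 42.7, 55.5 and 41.1, and Abca3, at 49.6 against 63.6, 64.9 and 67.8, also lay below every array and were not called (log2 fold changes -0.86, -0.38 and, after TMM scaling, 0.13, adjusted p = 0.326, 0.492 and 0.788 by edgeR). Abca3 and Napsa had 54 of 61 and 31 of 31 UMIs in non-epithelial barcodes there. Keratin-positive barcodes numbered 7 at this border against 56, 53 and 23 in the arrays, and neutrophil barcodes 291 of 620 against 116 of 449, 237 of 574 and 132 of 433, and the part of this mix in the fold changes was not tested. Over the alternatives run, including those below where a call was lost, Sftpa1 kept a log2 fold change between -4.99 and -3.59. Lamp3 likewise kept one between -4.70 and -3.85. TMM raised the fold changes of this comparison by 0.52 on the log2 scale over library totals, with which 6 genes were called. The share of all genes called with library totals is not given, so nothing is read from that count. Without array 2 Sftpa1 was no longer called (adjusted p = 0.0665), and without array 3 Slc34a2 was called too (log2 fold change -2.63, adjusted p = 0.0291), both by edgeR. With at least 500 genes per barcode Sftpb was not called (-0.96, adjusted p = 0.0988 by edgeR). The highest barcode of this border, chosen by the surfactant genes themselves, is its only surfactant-positive one, while each array keeps others, so leaving out the highest barcode of each library sets the direction for these genes and carries no test. It left 2 Sftpc, 25 Sftpb and 2 Sftpd UMIs (1.64, 20.5 and 1.64 CPM) at the border. Sftpa1 and Lamp3, which had no UMI in that barcode, were then not called (adjusted p = 0.239 and 0.0813 by edgeR).

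In Tumor 2, none of the 10 genes was called between border and Whole Tumor by edgeR or by DESeq2, where edgeR called 3.19% of genes (1.02% higher and 2.16% lower). The share of all genes at an unadjusted p under 0.05 is not given, so nothing is read from how many of the 10 reached it. It was reached by 4 of the 10 genes in edgeR (3 by DESeq2). Those 4 were lower at the border: Sftpd at 38.3 CPM against 92.7, 61.4 and 86.4 (log2 fold change -1.27 ± 0.46, adjusted p = 0.167), Lamp3 at 9.58 against 43.6, 18.7 and 17.3 (-1.59 ± 0.56, 0.152), Ager at 14.4 against 59.97, 16.03 and 41.8 (-1.70 ± 0.54, 0.104) and Napsa at 67.0 against 109, 96.2 and 85.8 (-0.68 ± 0.28, 0.226). The border lay below every array for each of them. Slc34a2 and Nkx2-1 stood above every array at the border, at 52.0 CPM against 45.0, 5.34 and 11.7 and at 9.58 against 1.36, 0 and 3.90, and were not called (adjusted p = 0.460 and 0.372 by edgeR). A single barcode held 46 of the 76 Slc34a2 UMIs of this border, and with the highest barcode of each library left out Slc34a2 stood at 20.6 CPM against 26.2, 2.68 and 8.98, within the range of the arrays, and Nkx2-1 at 4.81 against 0, 0 and 2.81. Sftpc, at 611 CPM, Sftpb, at 153 CPM, and Sftpa1, at 126 CPM, lay within the range of the arrays, and Abca3, at 67.0 CPM, just above them. Macrophage barcodes numbered 144 of 506 at this border against 31 of 328, 37 of 368 and 59 of 616 in the arrays, and neutrophil barcodes 94 against 93, 134 and 226. Of the 98 Napsa UMIs of this border 79 lay in non-epithelial barcodes, and the part of this mix in the fold changes was not tested.

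Whether the border differed from the Whole Tumor by another amount in Tumor 1 than in Tumor 2 was tested as an interaction, a comparison added after the data were seen. It was called for 0 of the 10 genes by edgeR and by DESeq2, where edgeR called 14.8% of genes (7.89% higher and 6.93% lower), with 3 genes (1 by DESeq2) at an unadjusted p under 0.05: Slc34a2 (difference of log2 fold changes -3.41 ± 1.16, adjusted p = 0.0578), Sftpd (-2.61 ± 0.97, 0.0827) and Nkx2-1 (-3.29 ± 1.33, 0.111). No share of all genes at that unadjusted threshold is given, so nothing is read from this number of genes. With library totals alone 4 genes were called and with no filter on low counts 3, so the count depends on the scaling and the filter. The share of all genes called in those settings is not given, so neither count is read further.

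**Figure D5:**
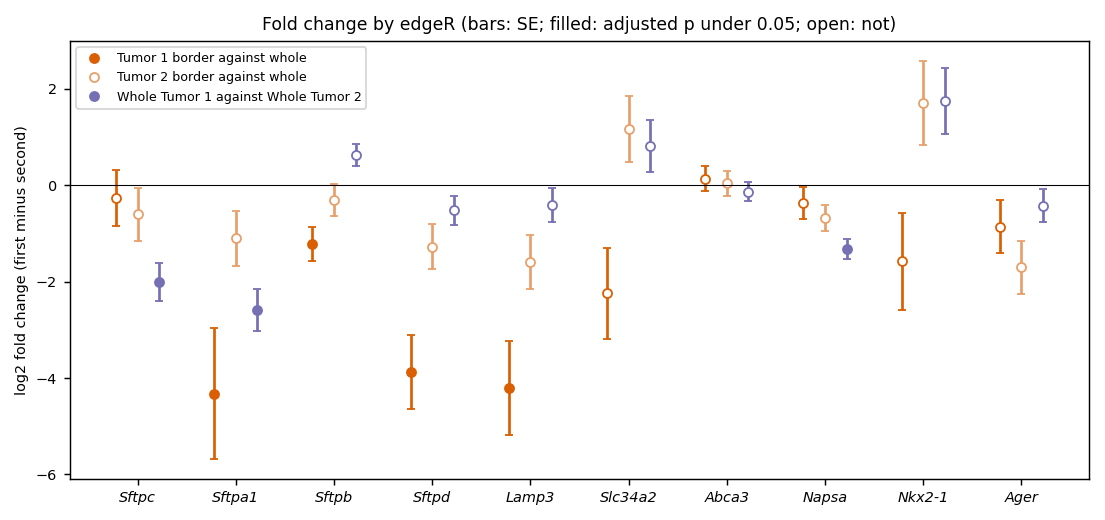
Log2 fold change of each gene between border and Whole Tumor in each tumor and between the Whole Tumors (edgeR, bars are SE, filled points have an adjusted p under 0.05). Filled points are Sftpa1, Sftpb, Sftpd and Lamp3 for the border of Tumor 1, and Sftpc, Sftpa1 and Napsa between the Whole Tumors.

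In counts summed over libraries, Abca3 and Napsa differed from the other 8 genes in where their molecules lay. Surfactant-positive barcodes held 27.1% of Abca3 and 18.8% of Napsa UMIs, but 97.9% of Sftpc, 97.2% of Sftpa1, 96.1% of Sftpd, 93.5% of Lamp3, 88.4% of Slc34a2, 87.6% of Sftpb, 84.4% of Ager and 71.4% of Nkx2-1 UMIs. By library these shares varied, with Abca3 at 57.4% in array 1 of Whole Tumor 2. In Whole Tumor 1, Sftpb stood at 49.8% and Ager at 42.1% in array 1, and Slc34a2 at 33.3% in array 3. Pooled over libraries, Napsa stood at 380.1 CPM (313 to 457) in surfactant-positive, 206 (159 to 262) in dendritic, 92.7 (60.5 to 136) in alveolar macrophage, 74.5 (48.7 to 109) in lymphoid, 50.03 (40.7 to 60.9) in macrophage and 39.9 (33.5 to 47.3) in neutrophil barcodes, with only 3.50 in keratin-positive ones. These levels pool tumors that hold the classes in different numbers (1 and 55 alveolar macrophage, 19 and 96 lymphoid and 776 and 547 neutrophil barcodes in Tumor 1 and Tumor 2). Within Tumor 1, surfactant-positive barcodes stood at 302 CPM (232 to 386) and dendritic ones, with an overlapping interval, at 275 (168 to 424), lymphoid at 153 (83.5 to 256), neutrophil at 32.7 (25.7 to 40.98) and macrophage at 31.1 (19.0 to 48.0). Within Tumor 2, surfactant-positive barcodes stood at 570.0 CPM (422 to 754), dendritic ones at 185 (135 to 248), alveolar macrophage at 93.6 (61.1 to 137), macrophage at 59.1 (46.8 to 73.7), neutrophil at 55.2 (42.1 to 71.1) and lymphoid at 46.6 (24.1 to 81.5). Dendritic barcodes were the highest leukocyte class in each tumor, with intervals overlapping the next class, and the order of the other classes differed between the tumors. Napsa was found in 33 of 68 dendritic barcodes and was present in them in all 7 libraries that had any, at 99.7 to 519 CPM. Surfactant-positive barcodes stood below dendritic ones in array 1 of Whole Tumor 1 (98.9 against 519 CPM) and array 2 of Whole Tumor 2 (144.6 against 287), and above them in the other 5 libraries that held both. The intervals of the classes overlapped in array 2 of Whole Tumor 2 and in 3 of those 5 libraries, namely arrays 2 and 3 of Whole Tumor 1 and array 1 of Whole Tumor 2.

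Abca3 stood at 74.9 CPM (46.3 to 114) in alveolar macrophage, 65.7 (54.9 to 78.0) in macrophage, 53.8 (31.3 to 86.2) in dendritic, 51.6 (30.6 to 81.5) in lymphoid and 34.9 (28.9 to 41.8) in neutrophil barcodes. Neighbouring intervals overlap, and keratin-positive barcodes at 38.5 CPM lay among them. As for Napsa, these levels pool tumors that hold the classes in different numbers, so no order is read from them. Lymphoid barcodes held 18 Abca3 and 26 Napsa UMIs, and the other 8 genes had 5 there in all. Surfactant-positive barcodes exceeded lymphoid ones 2670-fold for Sftpc (739 to 22055), 10.6-fold for Abca3 (6.49 to 18.3) and 5.10-fold for Napsa (3.31 to 8.15). A comparison of lymphoid with neutrophil barcodes, in which 45.9% of the 2651 genes tested were called by edgeR (19.6% higher and 26.3% lower), left none of the 10 genes past the filter on low counts. With no filter, 0 of 10 were called and 0 had an unadjusted p under 0.05.

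Outside the epithelial classes the surfactant genes were scarce. Non-epithelial barcodes, 3673 in all, held 96 Sftpc, 66 Sftpb, 29 Sftpa1 and 17 Sftpd UMIs. By library, non-epithelial Sftpc ran from 1.69 CPM at the border of Tumor 1 to 31.1 CPM in array 1 of Whole Tumor 2, which was also the library with the highest Sftpc over all barcodes at 1480.1 CPM. Alveolar macrophage barcodes, 56 in all, stood at 24.95 CPM of Sftpc (10.0 to 51.4), with the interval of the lymphoid class overlapping.

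Genes with a pattern like the 10 were ranked by the share of their UMIs in surfactant-positive barcodes, among the 10400 genes with at least 50 UMIs. Surfactant-positive barcodes made up 2.0% of barcodes and 3.05% of UMIs. Cxcl15 led with 98.0% of 350 UMIs, ahead of Sftpc, and the next outside the list were Egfl6 (88.2%), Atp6v1c2 (86.2%), Kng2 (85.2%), Aqp5 (82.4%), AU021092 (82.1%), Hc (81.7%), Itih4 (79.0%), Lgi3 (77.4%) and Selenbp1 (69.5%). Each was found in at least 6 of the 8 libraries. Aqp5 encodes a water channel of alveolar type 1 cells and Hc encodes complement component C5. Since the class was drawn from surfactant genes in these barcodes, the ranking is a description and carries no test.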

How the data were processed

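The authors demultiplexed the reads with bcl2fastq 2.17.1.14, aligned them to mm10 with STAR 2.5.2b following Drop-seq protocol v2.0, and deposited raw UMI counts per gene and barcode, 1 table per array. Barcodes with fewer than 200 genes were left out here. Doublets were called with Scrublet (scanpy 1.11.5) and kept. A further engineered allele of the mice is not reported here. The members, classes and gene lists were chosen with earlier results of these data known. The 10 genes were named as a whole, list genes by adjusted p (up to 6 per list), and other genes by share of UMIs. Of the marker lists, 1 macrophage and 2 alveolar macrophage symbols had no match.

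Counts were summed per library, or per library and class, and tested with edgeR 4.0.16 in R 4.3.3 (quasi-likelihood F test after TMM scaling and the filterByExpr filter, with p adjusted by Benjamini-Hochberg and called under 0.05). Library comparisons used all 8 libraries fitted as 4 groups (tumor by region), so the 4 residual degrees of freedom come from technical arrays. A border library has no replicate and is assumed to vary like the arrays. DESeq2 1.42.0 was an alternative. Shares of barcodes are compared by exact permutation tests. In simulated counts where 200 genes had a 4-fold change, 60.6% were recovered in the Tumor 1 border comparison of 11232 genes, with 9.28% false calls, 64.9% (8.46%) for Tumor 2 and 80.3% (8.02%) between the Whole Tumors. These false calls exceed the share that the threshold of 0.05 aims at. The simulated border libraries took their spread from the same fit, so the border rates hold only if a border varies like the arrays. For surfactant-positive against keratin-positive barcodes, 74.6% were recovered (4.73%; 1788 genes).

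Same-numbered arrays of the tumors share only a number: correlations of their deviations over 6158 genes were 0.032, 0.0089 and -0.032.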

Additional observations from a re-analysis of the deposited data

How the results depend on the processing

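The number of the 10 genes called moved as follows. The share of all genes called in each alternative setting is not given, so these counts show only how far the calls move. Nothing about the 10 genes as a group is read from them. For the Tumor 1 border, 4 genes were called, 6 with library totals alone, 5 with no filter on low counts, and 3 to 5 when each array was left out in turn. In Tumor 2, 0 were called, 1 (Ager) with no filter on low counts, and 0 to 1 with an array left out. Between the Whole Tumors, 3 were called, 5 with library totals alone, 5 with no filter and 3 to 5 with an array left out. For surfactant-positive against keratin-positive barcodes, 5 were called (all passed the filter only through the class where they are high, so the count is no result), 3 of 3 tested with a rule of 2 surfactant UMIs and 0 to 5 with an array left out. Within surfactant-positive barcodes, 1 was called, a gene of the class rule and so no result, 3 by DESeq2, 2 with library totals alone, 0 with no filter, 0 with a rule of 2 UMIs, 2 with a rule of 5 UMIs and 0 to 1 with an array left out. With a replicate block on the array number that count was 0, and between the Whole Tumors it stayed at 3. Dropping the array block from the comparison with keratin-positive barcodes left 5. The cause of these moves was not tested. The share difference lay between 1.47 and 2.32 points with an array left out, and the summed level of the 6 genes between 3431 and 3977 CPM with a library left out, at 3198 CPM with a rule of 2 UMIs and 4005 CPM with a rule of 5. Leaving out barcodes whose sequence recurs between libraries, chosen after seeing the data, changed none of these counts. Without the highest surfactant barcode of each library, also chosen after seeing the data, the counts were 4 and 0 for the borders. Sftpa1 and Lamp3 were not among those 4, so they are not the same 4 genes as with all barcodes. The counts were 2 between the Whole Tumors and 2 for the interaction. The barcode left out is chosen by the surfactant UMIs compared, and at the Tumor 1 border it fixes the direction. None of these counts is therefore a result. Against keratin-positive barcodes 3 of 3 tested were called and within surfactant-positive ones 0, and the level of the 6 genes was 3064 CPM.

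Directions turned as follows. For the Tumor 1 border, Abca3 had a log2 fold change of -0.40 with library totals and -0.10 with no filter, and Sftpc ranged from -0.65 to 0.28 (without array 2) with an array left out. For the Tumor 2 border, Abca3 had -0.030 with at least 500 genes and ranged from -0.0068 (without array 2) to 0.069. Between the Whole Tumors, Abca3 had 0.18 with library totals, Slc34a2 ranged from -0.11 (without array 2 of Tumor 1) to 1.73 and Lamp3 from -0.77 to 0.037 (without array 1 of Tumor 2). For the interaction, Sftpc, Abca3 and Napsa had -0.32, -0.60 and -0.38 with library totals and -0.023, -0.23 and -0.022 with no filter, and Sftpc ranged from -0.27 (without array 1 of Tumor 2) to 0.90, with -0.05 without array 3 of Tumor 1. Within surfactant-positive barcodes, Slc34a2 had -0.0032 with at least 500 genes, a range from -0.48 (without array 2 of Tumor 1) to 0.67, with -0.05 without array 2 of Tumor 2, and -0.28 with the replicate block. Without the highest barcode of each library, Sftpc had 0.070 for the Tumor 2 border, Sftpd 0.12 and Lamp3 0.013 between the Whole Tumors, Sftpc -6.34 and Ager -0.75 for the interaction, and Slc34a2 -0.50 within surfactant-positive barcodes.

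With 78 surfactant-positive barcodes, 1 of them at the Tumor 1 border, counts of Nkx2-1, Napsa and Lamp3 are small, and the arrays of each tumor are technical.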

Other observations

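Airway genes were present in few surfactant-positive barcodes. The 6 airway genes gave 238 UMIs there (8.08 per 10000 UMIs), of which 194 were Scgb1a1, the secretoglobin of club cells. These 194 UMIs came from 3 of the 78 barcodes, and array 3 of Whole Tumor 2 held 196 of the 238 UMIs, without which the airway genes stood at 1.56 per 10000. Tumor 1 held 14 of them, and keratin-positive barcodes held 0 Scgb1a1 UMIs. The alveolar type 1 list stood at 23.6 UMIs per 10000 in surfactant-positive and 12.3 in keratin-positive barcodes, and the tumor progression list at 9.30 and 29.2. Hmga2, of the latter list, stood at 17.0 CPM in surfactant-positive and 431 CPM in keratin-positive barcodes, and the keratin-positive barcodes are nearly all of Tumor 1.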
